A study of Mus musculus with 30 samples.

Results

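Expression of 10 genes for the synthesis and use of glutathione (Gsr, Gss, Gclc, Gclm, Slc7a11, Gpx1, Gpx4, Gsto1, Gstm1 and Mgst1) was followed through 30 RNA sequencing libraries of mouse primary microglia. The genes were taken by name from a fixed list, and the deposited transcript counts were summed for each gene. All 10 passed the filter on low counts that left 14346 genes of the 25899 with any count. The libraries fall into 6 groups: 5 Lrrk2-/- (KO) cultures given α-synuclein fibrils, 4 wild-type (WT) cultures given fibrils, 4 KO cultures given LPS (lipopolysaccharide, from the outer membrane of bacteria), 6 WT cultures given LPS, 6 untreated KO controls and 5 untreated WT controls. All groups share the C57BL/6 strain and the age of the mice, postnatal day 21. The gene deleted in KO encodes a protein kinase whose mutations cause familial Parkinson's disease, and α-synuclein is the protein that aggregates in that disease. The design sets each treatment against the untreated cultures of the same genotype and KO against WT within each treatment. The sources used here give no doses, times of exposure or sex, nor the cultures or animals behind a library, and p-values therefore reflect the spread among these libraries, which may be technical.

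Glutathione is a small peptide of glutamate, cysteine and glycine, and its free thiol makes it the main soluble antioxidant of the cell. Cystine brought in by the Slc7a11 transporter supplies the cysteine, glutamate-cysteine ligase (Gclc and Gclm) and glutathione synthetase (Gss) assemble the peptide, and glutathione reductase (Gsr) returns the oxidised form to use with NADPH. Glutathione peroxidases and transferases spend it on peroxides and on reactive compounds, and in macrophages and microglia several of these genes are known targets of the transcription factors Nrf2 and Atf4.

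Gene totals ranged from 8936310 to 35677005 counts per library, with a median of 20432234. Lrrk2 itself stood between 0.731 and 1.88 CPM (counts scaled to library size with TMM factors) in KO fibril libraries against 6.87 to 9.49 CPM in WT fibril libraries, and every KO library lay below every WT library of the same treatment. Of the microglial markers Csf1r ranged from 738 to 2033 CPM over the libraries, whereas Sall1 ranged from 1.16 to 4.91 CPM, Tmem119 from 2.22 to 11.9 CPM and P2ry12 from 0.628 to 14.4 CPM. The sum of 9 markers of border and peripheral macrophages was 1069 to 1263 CPM in KO fibril and 1373 to 1415 CPM in WT fibril libraries. With LPS it was 1188 to 1279 CPM in KO and 1352 to 1782 CPM in WT. The control ranges, 1046 to 1491 CPM in KO and 1259 to 1596 CPM in WT, overlapped. These 9 markers are not in the other-cell marker score used below, and the part of such cells in the results was not tested. Of 42 markers of astrocytes, oligodendrocyte lineage, neurons, vessels and fibroblasts, 2 to 18 were at 0 in a library. Their summed level was 224 to 571 CPM in KO fibril, 148 to 166 CPM in WT fibril, 196 to 682 CPM in KO LPS, 179.6 to 604 CPM in WT LPS, 233 to 1152 CPM in KO control and 175 to 554 CPM in WT control libraries. The WT fibril libraries thus held the lowest values and the narrowest range of these markers. As a group they also lay closest to each other, with a median per-gene chi-square of 1.09 to 1.64 between pairs, where sampling alone gives 0.455. The range was 3.80 to 14.4 among KO fibril, 1.36 to 6.54 among KO LPS and 1.38 to 10.9 among WT LPS libraries. Among controls it was 4.21 to 13.5 in KO and 3.36 to 12.5 in WT. Single pairs elsewhere were as close as WT fibril pairs, namely KO LPS replicates 1 and 2 (1.36) and WT LPS replicates 3 and 4 (1.38). Earlier work on these data listed 7 libraries as standing apart in RNA composition, total or markers (KO fibril replicate 5, WT LPS replicates 1 and 6, KO control replicates 1, 4 and 6, and WT control replicate 6), and calls that ended without them are named beside the result.

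RefSeq promoter windows of build GRCm38.p6 were at hand for 8 of the 10 genes and were searched on both strands for 3 short elements: the antioxidant response element TGACNNNGC, to which Nrf2 binds, the AP-1 element TGANTCA and the amino acid response element TGATGNAA, to which Atf4 binds. A window runs from 250 bases before to 50 bases after the annotated start. Of all 32851 mouse windows, 12.4% held TGACNNNGC, 7.81% held TGANTCA and 3.97% held TGATGNAA. Matches were found for Slc7a11, Gclm and Mgst1, and their 250 bases before the start are shown here because the results below turn on these genes, with each match in capitals.
Slc7a11 (chr3:50443614-50443863, minus strand): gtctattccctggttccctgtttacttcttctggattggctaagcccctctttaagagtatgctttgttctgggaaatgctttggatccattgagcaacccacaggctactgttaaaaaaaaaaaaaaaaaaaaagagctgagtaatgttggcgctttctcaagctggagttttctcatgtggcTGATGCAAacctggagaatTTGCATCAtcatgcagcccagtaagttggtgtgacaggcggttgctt
Gclm (chr3:122245307-122245556, plus strand): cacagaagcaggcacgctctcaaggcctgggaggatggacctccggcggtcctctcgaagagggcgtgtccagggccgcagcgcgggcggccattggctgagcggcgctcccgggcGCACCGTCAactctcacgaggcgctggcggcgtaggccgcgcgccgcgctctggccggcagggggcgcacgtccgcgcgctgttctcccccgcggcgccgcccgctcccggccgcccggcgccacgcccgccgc
Mgst1 (chr6:138140277-138140526, plus strand): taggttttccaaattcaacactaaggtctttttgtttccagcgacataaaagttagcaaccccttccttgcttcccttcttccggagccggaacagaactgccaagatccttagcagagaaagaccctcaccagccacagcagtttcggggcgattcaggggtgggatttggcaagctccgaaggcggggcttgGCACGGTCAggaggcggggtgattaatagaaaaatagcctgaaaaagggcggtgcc
The Slc7a11 stretch held TGATGNAA on both strands, 66 and 47 bases before the start. In Gclm the element TGACNNNGC lay on the opposite strand 134 bases before the start. In Mgst1 it lay on the opposite strand 56 bases before the RefSeq start. The GENCODE gene start of Mgst1, 138140316, lies inside the printed stretch, so this match is within the GENCODE gene. No element overlapped another. These matches describe letters and are not evidence of binding.

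All 5 genes for cystine import, synthesis and recycling (Slc7a11, Gclc, Gclm, Gss and Gsr) rose with fibrils in WT cultures, and 4 of them, without Gclc, rose in KO cultures. With LPS 4 of them, without Gss, rose in KO cultures and Slc7a11 alone in WT cultures. No peroxidase or transferase passed the test as higher against control. Mgst1, not called, differed by 0.65 for fibrils in WT and 0.69 for LPS in KO, where Gclc rose by 0.63 and 0.67. Gpx1 fell with fibrils in KO and Gsto1 fell with fibrils in WT. Differences are given as log2 fold change ± SE (standard error) by edgeR's quasi-likelihood test, adjusted by Benjamini-Hochberg over all 14346 genes and called at an adjusted p under 0.05. With LPS in KO cultures 4 of the 10 genes rose and none fell, where 13.7% of all genes were called. With LPS in WT cultures 1 rose and none fell, where 15.1% of all genes were called. With fibrils in KO cultures 4 rose and 1 fell, against 23.7% called among all genes, and with fibrils in WT cultures 5 rose and 1 fell, against 29.4%. Fibrils set against LPS gave 1 higher and 2 lower in KO (26.5% of all genes called) and 3 higher and 1 lower in WT (37.1% of all genes called). The median log2 fold change of the 10 genes was 0.39 for LPS in KO, 0.06 for LPS in WT, 0.18 for fibrils in KO and 0.64 for fibrils in WT, while the median over all genes lay between -0.05 and -0.02 in these comparisons. The 2 responses of a genotype share its control libraries.

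**Figure D1:**
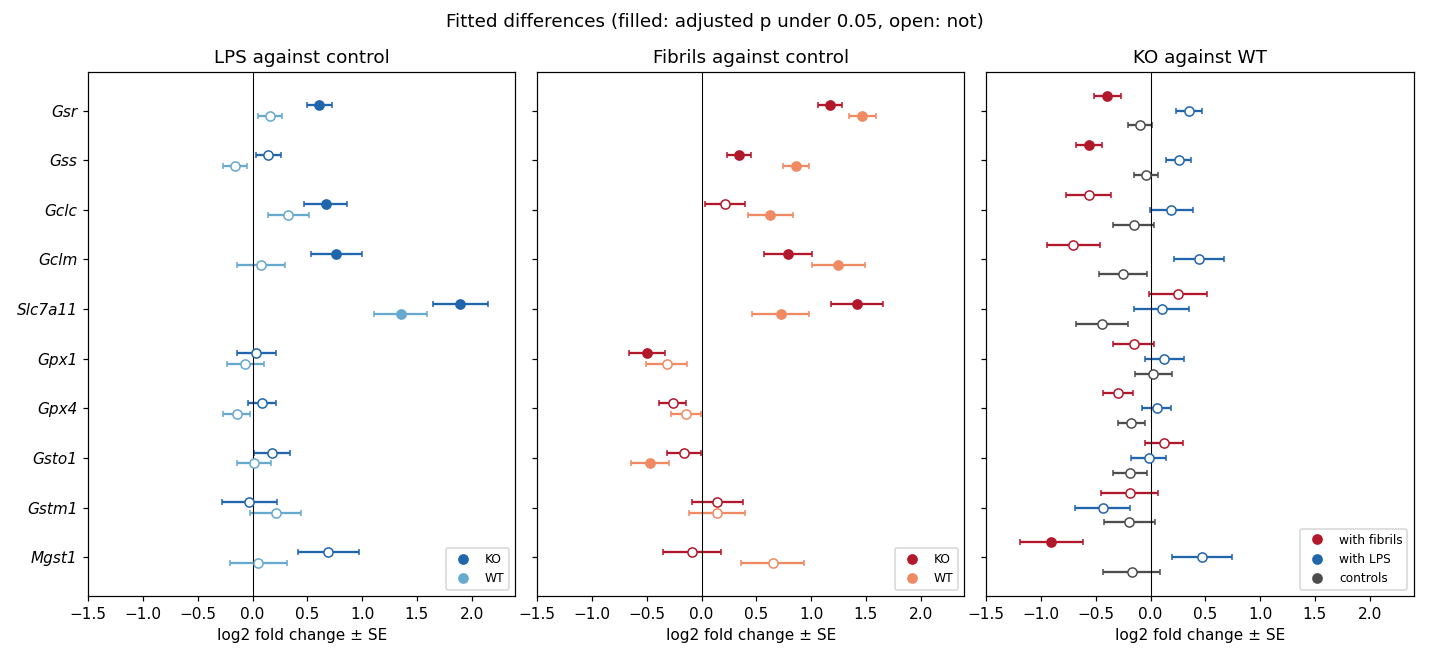
Log2 fold change ± SE of the 10 glutathione genes for LPS against control, fibrils against control and KO against WT, with filled points for adjusted p under 0.05. Slc7a11 has the largest LPS values (1.90 in KO and 1.35 in WT) and Gsr the largest in WT fibrils (1.47), and in the panel of KO against WT the filled points are those with fibrils for Gsr, Gss and Mgst1.

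Slc7a11 (ENSMUSG00000027737, chromosome 3, 49892526 to 50443614, minus strand, GENCODE M21 on GRCm38) encodes the light chain of the cystine/glutamate antiporter. Its level was 539, 485, 444 and 339 CPM in the KO LPS libraries, against a lowest of 57.0, a median of 115 and a highest of 202.2 CPM in KO controls. In WT LPS libraries it ran from 346 through a median of 423 to 496 CPM, against 146, 143, 195, 236 and 104 CPM in WT controls. All LPS libraries of either genotype lay above all controls of that genotype. The rise with LPS was 1.90 ± 0.25 in KO (adjusted p = 2.19e-06) and 1.35 ± 0.24 in WT (adjusted p = 0.000143). With fibrils the KO libraries held 334, 247, 210.0, 310.1 and 516 CPM and the WT libraries 262, 299, 274 and 253 CPM, again above all controls of the same genotype. The rise with fibrils was 1.42 ± 0.24 in KO (adjusted p = 7.63e-05) and 0.72 ± 0.26 in WT (adjusted p = 0.0372). In WT this call held in 2 of the 9 fits that left out 1 library and in 7 of 11 other settings, and adjusting for the other-cell marker score gave 0.49 (adjusted p = 0.29). The fits in which it held were those without WT control replicate 3 or 5, and the highest adjusted p among the others was 0.0915, without WT fibril replicate 2. Fibril libraries differed from LPS libraries by -0.48 ± 0.26 in KO (adjusted p = 0.18) and by -0.63 ± 0.26 in WT (adjusted p = 0.0529), and all WT fibril libraries lay below all WT LPS libraries. In bulk samples, fewer cells of a type and less RNA per cell cannot be told apart.

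The Slc7a11 counts are divided between the coding transcript (ENSMUST00000029297, 9223 bases) and a shorter one annotated as a retained intron (ENSMUST00000142932, 3162 bases). This split was singled out after its values were seen and is given without a test. The retained-intron transcript took 10.2 ± 0.704% of the gene's counts in KO LPS libraries (SD, n = 4) and 13.5 ± 3.26% in WT LPS libraries (n = 6), against 3.32 ± 1.28% in KO controls (n = 6) and 3.60 ± 0.258% in WT controls (n = 5). The lowest LPS library stood at 9.02% and the highest control at 5.21%, so LPS and control libraries did not overlap. With fibrils the share was 2.91 ± 1.34% in KO (n = 5) and 2.79 ± 0.856% in WT (n = 4). Every KO fibril library lay within the range of the KO controls. Of the WT fibril libraries 3 lay below all WT controls and 1, at 3.97%, lay just above the highest WT control, at 3.95%. Within each genotype, all LPS libraries were thus above all controls in both the gene total and this share, and all fibril libraries were above all controls in the gene total but not in the share.

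**Figure D2:**
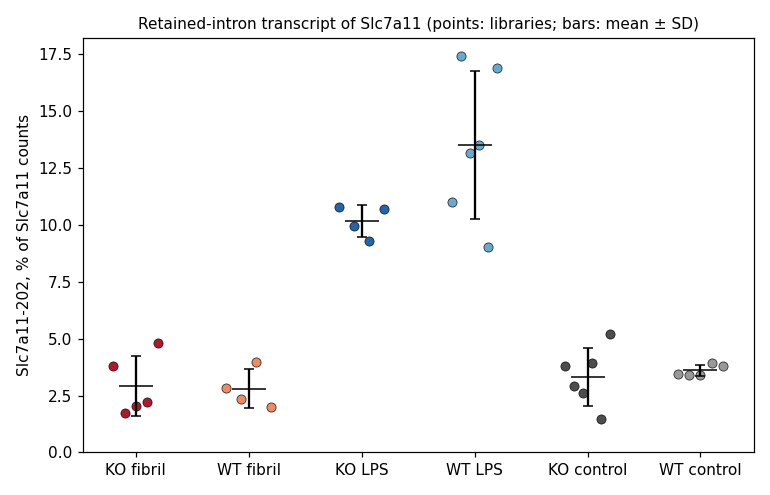
Share of Slc7a11 counts, in percent, that the deposited table assigns to the retained-intron transcript in each library, with the mean ± SD of each of the 6 groups. The KO LPS and WT LPS libraries lie at 9.02% or more, and all fibril and control libraries lie at 5.21% or less.

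Gclc (ENSMUSG00000032350, chromosome 9, 77754535 to 77794485, plus strand) encodes the catalytic subunit of glutamate-cysteine ligase, the rate-limiting enzyme of glutathione synthesis. The KO LPS libraries held 98.0, 96.2, 75.4 and 81.8 CPM, against a lowest of 43.6, a median of 53.1 and a highest of 81.0 CPM in KO controls. The WT LPS libraries ran from 60.2 through a median of 74.2 to 99.9 CPM, against 55.6, 56.7, 52.1, 56.1 and 87.0 CPM in WT controls. LPS and control libraries overlapped in both genotypes, by the highest control library. Gclc rose with LPS in KO by 0.67 ± 0.20 (adjusted p = 0.0207), a call that ended without KO LPS replicate 1 (adjusted p = 0.0774) or 2 (adjusted p = 0.0681), and the WT difference was 0.33 ± 0.19 (adjusted p = 0.314). With fibrils Gclc held 92.0, 85.4, 47.7, 55.4 and 39.7 CPM in KO libraries and 95.1, 97.7, 96.6 and 90.3 CPM in WT libraries. The KO values spread across the control range, while all WT values lay above all WT controls. The fibril difference was 0.21 ± 0.19 in KO (adjusted p = 0.461), and Gclc rose by 0.63 ± 0.21 in WT (adjusted p = 0.0232), a call that ended without WT control replicate 3 (adjusted p = 0.0593), WT control replicate 5 (adjusted p = 0.0587) or WT fibril replicate 2 (adjusted p = 0.0538). Adjusted for the other-cell marker score, whose markers are lowest in the WT fibril libraries, the WT fibril difference was 0.48 (adjusted p = 0.155). The KO LPS difference with that adjustment was 0.58 (adjusted p = 0.056). Both calls also ended with library-size scaling and with close libraries summed.

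Gclm (ENSMUSG00000028124, chromosome 3, 122245557 to 122270732, plus strand) encodes the modifier subunit, which raises the ligase's affinity for glutamate. Genes Gm6061 on the same strand and Gm17494 on the opposite strand overlap it, so reads may be shared. The KO fibril libraries held 493, 524, 142, 350.2 and 253 CPM and the KO LPS libraries 467, 395, 261 and 261 CPM, against a lowest of 140.4, a median of 198 and a highest of 277 CPM in KO controls. Both treated KO groups thus had libraries far above the controls and others among them. Gclm rose in KO by 0.79 ± 0.22 with fibrils (adjusted p = 0.00866, and 0.107 in a model of only the compared groups) and by 0.76 ± 0.23 with LPS (adjusted p = 0.0241). The LPS call ended without KO LPS replicate 1 (adjusted p = 0.153), KO LPS replicate 2 (adjusted p = 0.0852) or KO control replicate 3 (adjusted p = 0.0579). It also ended when adjusted for the other-cell marker score (0.66, adjusted p = 0.0669) and with library-size scaling (0.57, adjusted p = 0.0789). With close libraries summed, among them KO LPS replicates 1 and 2, the LPS difference was 0.64 and was not called. The WT fibril libraries held 546, 579, 588 and 584 CPM, and the WT LPS libraries ran from 206 through a median of 256 to 299 CPM, against 213, 263, 217, 252 and 265 CPM in WT controls. All WT fibril values lay above all other WT values. Gclm rose in WT by 1.25 ± 0.24 with fibrils (adjusted p = 0.000453) and differed by 0.07 ± 0.22 with LPS (adjusted p = 0.913), and the fibril libraries stood 1.17 ± 0.23 above the LPS libraries (adjusted p = 0.000295). Both WT fibril calls ended only when the 4 WT fibril libraries, which lie close together, were summed to 1 sample (adjusted p = 0.0804 against control and 0.0619 against LPS).

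Gss (ENSMUSG00000027610, chromosome 2, 155563181 to 155592810, minus strand) encodes glutathione synthetase, which adds glycine in the last step. Acss2, Gssos1 and Gssos2 overlap it on the opposite strand, and the labels do not say whether the counting used strand. The WT fibril libraries held 22.7, 24.2, 22.5 and 23.9 CPM, against 11.9, 11.8, 14.1, 12.9 and 13.4 CPM in WT controls. The KO fibril libraries held 16.6, 16.8, 14.4, 18.9 and 12.1 CPM, against a lowest of 11.2, a median of 12.1 and a highest of 15.0 CPM in KO controls. The WT groups did not overlap and the KO groups did. Gss rose with fibrils by 0.86 ± 0.12 in WT (adjusted p = 9.17e-06) and by 0.34 ± 0.11 in KO (adjusted p = 0.0206). The KO call ended without KO fibril replicate 4 (adjusted p = 0.0807) and without the 7 libraries that stand apart (adjusted p = 0.0545). With LPS the libraries held 15.2, 17.3, 10.99 and 11.5 CPM in KO and between 10.5 and 12.1 CPM in WT. These values overlapped the controls, and the LPS difference was 0.14 ± 0.12 in KO (adjusted p = 0.49) and -0.16 ± 0.11 in WT (adjusted p = 0.443). In WT the fibril libraries stood 1.02 ± 0.11 above the WT LPS libraries (adjusted p = 1.44e-07).

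Gsr (ENSMUSG00000031584, chromosome 8, 33652523 to 33698163, plus strand), which encodes glutathione reductase and is overlapped by Gm24727 on the same strand, was called in 6 of the 11 comparisons, more than any other member. The KO fibril libraries held 301, 275, 241, 259 and 294 CPM and the KO LPS libraries 215, 225, 144 and 159 CPM, against a lowest of 104, a median of 113 and a highest of 150.3 CPM in KO controls. The WT fibril libraries held 347, 382, 349 and 364 CPM and the WT LPS libraries ran from 132 through a median of 141 to 173 CPM, against 128, 140.1, 124, 127 and 133 CPM in WT controls. Every fibril library lay above every LPS and control library of its genotype. The rise with fibrils was 1.17 ± 0.11 in KO (adjusted p = 2.11e-08) and 1.47 ± 0.12 in WT (adjusted p = 4.33e-09). With LPS Gsr rose by 0.61 ± 0.12 in KO (adjusted p = 0.000343), and the WT difference was 0.16 ± 0.11 (adjusted p = 0.429). Fibril libraries stood above LPS libraries by 0.56 ± 0.12 in KO (adjusted p = 0.00107) and by 1.31 ± 0.11 in WT (adjusted p = 3.42e-09). These 5 calls held in all fits that left out 1 library and in all 11 other settings.

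**Figure D3:**
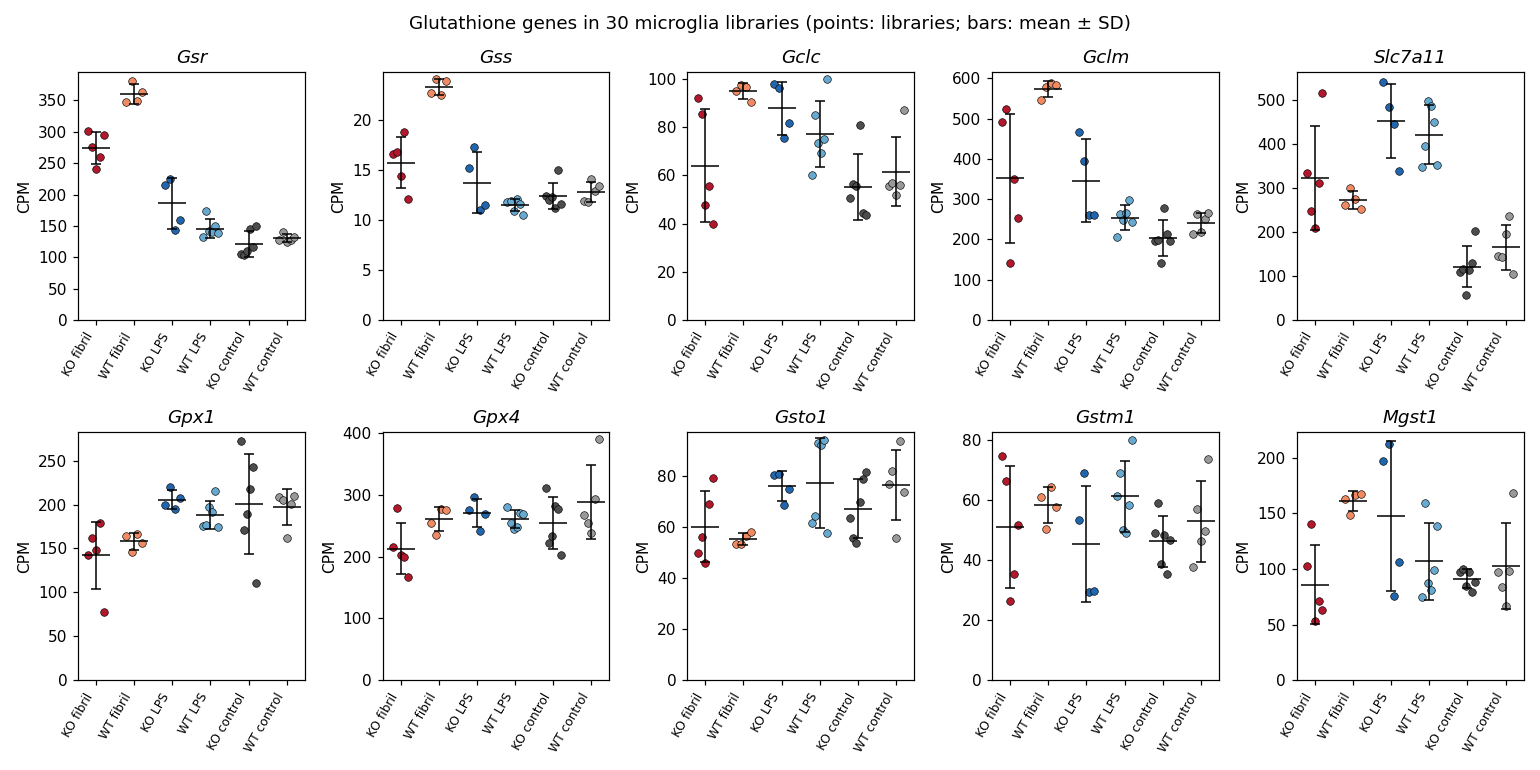
CPM of each of the 10 glutathione genes in each of the 30 libraries, with the mean ± SD of each of the 6 groups. For Gsr the KO fibril and WT fibril libraries (241 to 382 CPM) lie above all other libraries, and for Gclm the KO fibril libraries spread from 142 to 524 CPM while the WT fibril libraries stay between 546 and 588 CPM.

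The peroxidase Gpx1 (ENSMUSG00000063856, chromosome 9, 108338903 to 108340343, plus strand), a selenoprotein that reduces hydrogen peroxide, was the one member that fell against control in KO. Its KO fibril libraries held 142, 162, 149, 179 and 78.1 CPM and its KO LPS libraries 199.8, 219.7, 195 and 207 CPM, against a lowest of 111, a median of 203 and a highest of 273 CPM in KO controls. The fibril and LPS libraries did not overlap, and the fibril and control libraries did. Gpx1 fell by 0.50 ± 0.17 with fibrils against control in KO (adjusted p = 0.0304) and by 0.53 ± 0.18 with fibrils against LPS in KO (adjusted p = 0.0321). Without KO fibril replicate 5, the lowest library, the adjusted p was 0.0958 against control and 0.0876 against LPS. The first call also ended without KO control replicate 1, 4 or 5, and the second without any of the 4 KO LPS libraries. In WT it held 164, 146, 167 and 156 CPM with fibrils, against 209, 205, 162, 201 and 209 CPM in controls, and the difference was -0.32 ± 0.19 (adjusted p = 0.202).

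Gpx4 (ENSMUSG00000075706, chromosome 10, 80047166 to 80056439, plus strand), which reduces lipid peroxides in membranes and protects from ferroptosis, passed the test in no comparison. Its libraries ranged from 167 to 279 CPM in KO fibril, 236 to 278 CPM in WT fibril, 242 to 297 CPM in KO LPS, 245 to 280.1 CPM in WT LPS, 203 to 312 CPM in KO control and 238 to 390.5 CPM in WT control. All groups overlapped. Its lowest adjusted p was 0.0579, for KO fibril against KO LPS (-0.35 ± 0.14). Counts of Gpx1 and Gpx4 are uncertain to the extent that reads are shared with their pseudogenes.

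The 3 transferases did not move together. Gsto1 (ENSMUSG00000025068, chromosome 19, 47854970 to 47864790, plus strand), an omega-class enzyme that also reduces disulfides formed with glutathione and that Cfap43 overlaps on the opposite strand, fell with fibrils in WT. Its WT fibril libraries held 53.3, 53.3, 56.4 and 57.9 CPM and the WT LPS libraries ran from 57.8 through a median of 78.3 to 94.3 CPM, against 76.9, 82.2, 55.9, 93.7 and 73.9 CPM in WT controls. The fibril libraries lay at the low end of the other WT values, with a small overlap. Gsto1 fell by 0.47 ± 0.17 against control (adjusted p = 0.0392) and by 0.48 ± 0.17 against LPS (adjusted p = 0.0233), and these calls held in 2 of 9 and in 5 of 10 fits that left out 1 library. The first ended without WT control replicate 1, 2 or 5 or any WT fibril library (adjusted p up to 0.0973), and the second without WT LPS replicate 3, 4 or 5 or WT fibril replicate 1 or 2 (adjusted p up to 0.0617). In KO the fibril libraries ranged from 46.0 to 79.4 CPM, against 53.9 to 81.7 CPM in controls, and the difference was -0.16 ± 0.15 (adjusted p = 0.502).

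Mgst1 (ENSMUSG00000008540, chromosome 6, 138140316 to 138156755, plus strand), a transferase and peroxidase bound to membranes, varied widely in the treated KO groups, in WT LPS libraries and in WT controls. The KO fibril libraries held 103, 140.2, 53.0, 70.8 and 62.9 CPM and the KO LPS libraries 197, 212, 75.3 and 106 CPM, against 79.5 to 100.3 CPM in KO controls. In WT the fibril libraries held 163, 148, 167 and 167 CPM and the LPS libraries ran from 74.7 through a median of 93.2 to 159 CPM. The WT controls held 97.5, 83.6, 66.8, 98.4 and 168 CPM. Mgst1 was lower in KO with fibrils than in KO with LPS by -0.78 ± 0.29 (adjusted p = 0.0451), a call that held in 4 of 9 fits that left out 1 library and ended without KO LPS replicate 1 (adjusted p = 0.17) or 2 (adjusted p = 0.209), without KO fibril replicate 3, 4 or 5, and without the 7 libraries that stand apart (adjusted p = 0.087). LPS and fibril libraries overlapped. Against control the LPS difference was 0.69 ± 0.28 in KO (adjusted p = 0.099) and 0.05 ± 0.26 in WT (adjusted p = 0.953). The fibril difference was -0.09 ± 0.26 in KO (adjusted p = 0.87) and 0.65 ± 0.29 in WT (adjusted p = 0.0895). For LPS in KO Mgst1 was called without KO LPS replicate 3 (adjusted p = 0.028). For fibrils in WT it was called without WT control replicate 6 (adjusted p = 0.0183) and in 3 of 11 other settings.

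Gstm1 (ENSMUSG00000058135, chromosome 3, 108012255 to 108017973, minus strand), a mu-class transferase whose reads may be shared with its close paralogs, passed the test in no comparison. Its libraries ranged from 26.5 to 74.7 CPM in KO fibril, 50.3 to 64.3 CPM in WT fibril, 29.5 to 68.9 CPM in KO LPS, 49.0 to 79.9 CPM in WT LPS, 35.3 to 58.9 CPM in KO control and 37.8 to 73.7 CPM in WT control. The SD was 20.3 CPM in KO fibril and 19.3 CPM in KO LPS libraries, above the 5.99 to 13.5 CPM of the other groups.

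Within the treated KO groups the spread was shared between genes, and some of it was also shared in WT groups. WT LPS replicates 3, 4 and 5 lay above replicates 1, 2 and 6 for Slc7a11 and Gsto1. For Gclc, Gstm1 and Mgst1, WT LPS replicates 2 and 6 were the highest of their group. WT control replicate 6 was the highest WT control for Gclc, Gclm, Gpx4, Gstm1 and Mgst1. KO LPS replicates 1 and 2 lay above replicates 3 and 4 for every member except Gpx1, and KO fibril replicates 1 and 2 lay above replicates 3, 4 and 5 for Gclc, Gclm, Gpx4, Gstm1 and Mgst1. The summed level of the other-cell markers was 199 and 196 CPM in KO LPS replicates 1 and 2 and 383 and 682 CPM in replicates 3 and 4. In KO fibril replicates 1 and 2 it was 571 and 497 CPM, and in replicates 3, 4 and 5 it was 414, 224 and 292 CPM. The KO libraries with high glutathione genes thus had lower levels of these markers with LPS and higher levels with fibrils. The part of other cells in the result was not tested.

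**Figure D4:**
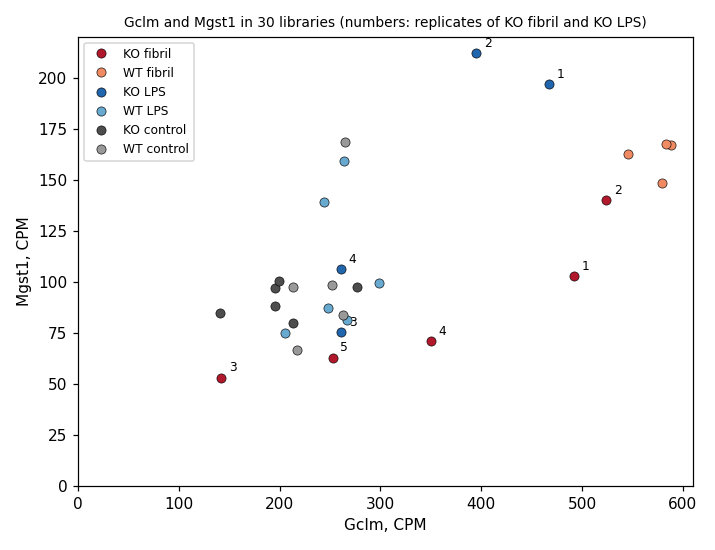
Gclm and Mgst1, both in CPM, in each of the 30 libraries, with replicate numbers beside the KO fibril and KO LPS points. KO LPS replicates 1 and 2 (Mgst1 197 and 212 CPM) and KO fibril replicates 1 and 2 (Gclm 493 and 524 CPM) stand apart from the other libraries of their groups.

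KO against WT within a treatment showed no called member in untreated cultures or with LPS, and 3 lower members with fibrils. In controls 0.321% of all genes were called, and the 10 fitted differences lay between -0.44 ± 0.23 for Slc7a11 (adjusted p = 0.739) and 0.03 ± 0.17 for Gpx1 (adjusted p = 0.992). With LPS 1.73% of all genes were called, and the lowest adjusted p of a member was 0.108, for Gsr (0.35 ± 0.12). DESeq2 called Gsr there, as did scaling by library size alone, and edgeR without KO LPS replicate 3.

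With fibrils 8.94% of all genes were called, among them Gss, Gsr and Mgst1. Every KO fibril library lay below every WT fibril library for Gss (12.1 to 18.9 CPM in KO, 22.5 to 24.2 CPM in WT), Gsr (241 to 301 CPM in KO, 347 to 382 CPM in WT) and Mgst1 (53.0 to 140.2 CPM in KO, 148 to 167 CPM in WT). The same held for Gclm (142 to 524 CPM in KO, 546 to 588 CPM in WT), which was not called (-0.70 ± 0.24, adjusted p = 0.0627). Gss fell by 0.57 ± 0.12 (adjusted p = 0.00692), Gsr fell by 0.39 ± 0.12 (adjusted p = 0.0393) and Mgst1 fell by 0.91 ± 0.29 (adjusted p = 0.0464) in KO relative to WT. The Gss call held in all 9 fits that left out 1 library. The Gsr call held in 3 and ended without KO fibril replicate 3 or 4 or any WT fibril library (adjusted p up to 0.106). The Mgst1 call held in 1, without KO fibril replicate 2 (adjusted p up to 0.12 in the others), and in 3 of 11 other settings, and it ended without the 7 libraries that stand apart (-0.82, adjusted p = 0.0607). Adjusted for the other-cell marker score, the differences were -0.47 for Gss (adjusted p = 0.235), -0.18 for Gsr (adjusted p = 0.744) and -0.37 for Mgst1 (adjusted p = 0.793), and with the WT fibril libraries summed to 1 sample each adjusted p was 0.714.

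Whether the genotypes differ in their response was tested as the difference of the 2 fibril responses. That difference, KO minus WT, was -0.52 ± 0.16 for Gss (adjusted p = 0.308), -0.30 ± 0.16 for Gsr (adjusted p = 0.486), -0.74 ± 0.39 for Mgst1 (adjusted p = 0.466), -0.46 ± 0.33 for Gclm (adjusted p = 0.617) and 0.69 ± 0.35 for Slc7a11 (adjusted p = 0.452). For the LPS response it was 0.45 ± 0.16 for Gsr, 0.69 ± 0.32 for Gclm and 0.55 ± 0.34 for Slc7a11, each with an adjusted p of 0.992. No member was called in either test. The share called over all genes was 0% for the LPS response and 0% for the fibril response, with 600 and 1667 genes at an unadjusted p under 0.05. DESeq2 called 0 genes for the LPS response and 67 for the fibril response, none of them a member, and limma-voom called 0 in both. Without the 7 libraries that stand apart edgeR called 0 genes for the LPS response and 250 for the fibril response, again none of them a member.

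Levels of different genes can be compared per transcript length, as TPM (a level scaled by transcript length and by the library's total). In WT controls Gpx4 was the highest at 497 ± 50.5 TPM (SD, n = 5), followed by Gpx1 at 292 ± 32.1 TPM, Mgst1 at 156 ± 40.7 TPM, Gclm at 151 ± 21.97 TPM and Gsto1 at 105 ± 17.2 TPM. Gsr followed at 81.5 ± 9.31 TPM, Gstm1 at 65.0 ± 11.6 TPM, Slc7a11 at 30.8 ± 10.5 TPM, Gclc at 28.1 ± 3.42 TPM and Gss at 10.96 ± 1.51 TPM. The library ranges of Mgst1, Gclm and Gsto1 did not all separate, nor did those of Gsto1 and Gsr, of Gsr and Gstm1, and of Slc7a11 and Gclc, while Gpx4, Gpx1 and Gss stood apart from their neighbours. With fibrils in WT, Gclm reached 324 ± 15.9 TPM and Gsr 195 ± 11.8 TPM (n = 4), against 209 ± 12.6 TPM for Gpx1 in the same libraries. With LPS, Slc7a11 reached 84.7 ± 14.4 TPM in KO (n = 4) and 82.0 ± 13.7 TPM in WT (n = 6). Over protein-coding transcripts alone the levels in WT controls were higher, from 707 TPM for Gpx4 to 15.2 TPM for Gss, in the same order except that Gclc (42.8 TPM) stood above Slc7a11 (41.9 TPM).

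**Figure D5:**
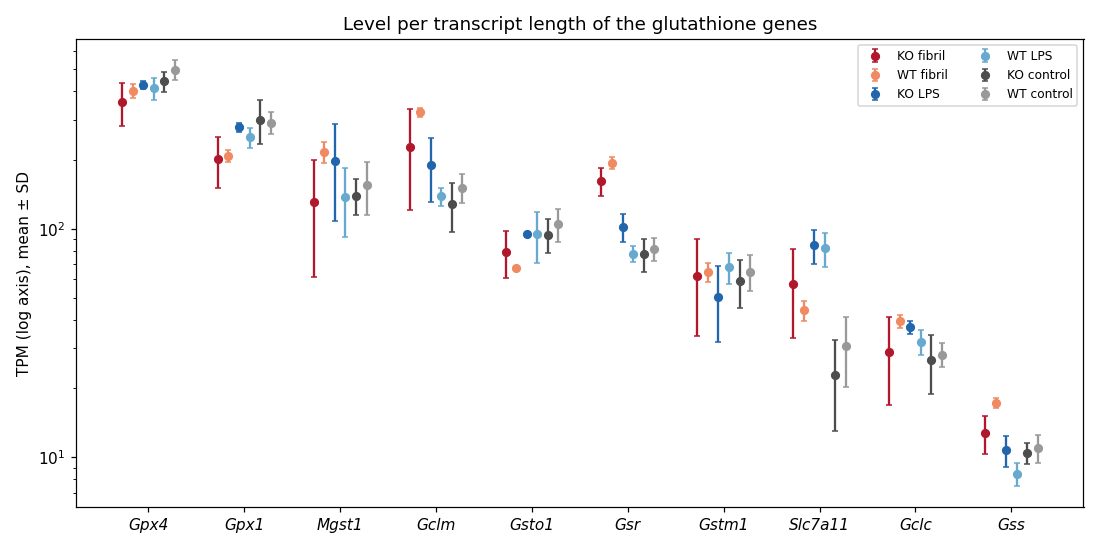
TPM of the 10 glutathione genes on a log axis as mean ± SD over the libraries of each of the 6 groups, ordered by level. Gpx4 lies at the top (497 TPM in WT controls) and Gss at the bottom (10.96 TPM), and Slc7a11, Gsr and Gclm show the widest gaps between groups.

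Other genes around glutathione were read from 4 lists, by how many passed the same test. Of 45 other glutathione genes tested, 6 rose with LPS in KO and 4 in WT, and none fell, shares below the 13.7% (KO) and 15.1% (WT) of all genes called. With fibrils 4 rose and 6 fell in KO, a share below the 23.7% of all genes, and 10 rose and 8 fell in WT, where 29.4% of all genes were called. Ptges, the prostaglandin E synthase that uses glutathione, averaged 85.4 ± 49.6 CPM in KO fibril and 46.8 ± 26.1 CPM in KO LPS libraries, against 5.92 ± 1.80 CPM in KO controls. It averaged 50.8 ± 5.28 CPM in WT fibril and 21.8 ± 8.01 CPM in WT LPS libraries, against 3.40 ± 1.12 CPM in WT controls. Ptges rose with fibrils by 3.83 ± 0.35 in KO and 3.91 ± 0.39 in WT, and with LPS by 2.96 ± 0.35 in KO and 2.69 ± 0.36 in WT. Abcc1, which exports glutathione conjugates, rose with fibrils by 0.98 ± 0.11 in KO and 1.07 ± 0.12 in WT, and with LPS by 0.55 ± 0.11 in KO. Ggct, which degrades γ-glutamyl dipeptides, rose with LPS by 1.45 ± 0.25 in KO and 1.68 ± 0.25 in WT. Glrx, a glutaredoxin, rose with fibrils by 0.71 ± 0.13 in KO and 0.77 ± 0.14 in WT. Of those that fell with fibrils in KO, Slc25a40 had the smallest p, with a difference of -0.62 ± 0.11. In KO relative to WT with fibrils 3 rose and 3 fell, where 8.94% of all genes were called. Of those that rose, Gsta4 had the smallest p, with a difference of 3.64 ± 0.99 (adjusted p = 0.0239). It averaged 8.20 ± 7.22 CPM in KO and 0.640 ± 0.188 CPM in WT. Of those that fell, Dpep2 differed by -1.01 ± 0.25 (adjusted p = 0.016) and Gsta3 by -1.20 ± 0.315 (adjusted p = 0.0208). Abcc1 averaged 621 ± 132 CPM in KO and 832 ± 26.6 CPM in WT. It fell by 0.42 ± 0.12 (adjusted p = 0.0281).

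Of 11 genes tested for the supply of cystine and cysteine beside Slc7a11, 1 rose and none fell with LPS in each genotype, and 1 rose and 1 fell with fibrils in each genotype. Each of these shares is below that of all genes in the same comparison. The riser was in each case Mat2a, the S-adenosylmethionine synthase of the methionine cycle, with 0.52 ± 0.10 for LPS in KO, 0.46 ± 0.09 for LPS in WT, 0.59 ± 0.09 for fibrils in KO and 0.53 ± 0.10 for fibrils in WT. The gene that fell with fibrils was Slc1a5 in KO (-0.84 ± 0.22) and Slc1a4 in WT (-1.66 ± 0.46). Slc1a5, a transporter of glutamine and other neutral amino acids, was lower in KO than in WT in every treatment. It averaged 3.69 ± 1.07 CPM in KO and 9.27 ± 0.487 CPM in WT with fibrils, 6.78 ± 1.30 CPM in KO and 13.7 ± 2.61 CPM in WT with LPS, and 6.61 ± 2.24 CPM in KO and 14.01 ± 2.55 CPM in WT controls. The difference was -1.32 ± 0.23 with fibrils (adjusted p = 0.00188), -1.02 ± 0.23 with LPS (adjusted p = 0.02) and -1.08 ± 0.21 in controls (adjusted p = 0.00917). With fibrils Slc1a4 went the other way and was higher in KO than in WT by 1.55 ± 0.46 (adjusted p = 0.0347).

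Of 17 genes that supply NADPH, on which Gsr depends, 1 rose with LPS in KO and none in WT, shares below the 13.7% (KO) and 15.1% (WT) of all genes called. With fibrils 3 rose and 2 fell in KO, near the 23.7% of all genes, and 6 rose and 3 fell in WT, where 29.4% of all genes were called. Pgd, of the pentose phosphate pathway, averaged 522 ± 149 CPM in KO fibril libraries, against 338 ± 47.8 CPM in KO controls, and 824 ± 65.9 CPM in WT fibril libraries, against 403 ± 66.3 CPM in WT controls. It rose by 0.63 ± 0.16 in KO and by 1.03 ± 0.18 in WT. Malic enzyme gene Me1 rose with fibrils by 0.73 ± 0.17 in KO and 1.10 ± 0.19 in WT, and the NAD kinase gene Nadk by 0.56 ± 0.10 in KO and 0.64 ± 0.11 in WT. Of those that fell in WT, Aldh1l2 averaged 0.807 ± 0.127 CPM with fibrils and 5.06 ± 1.94 CPM in controls, a difference of -2.64 ± 0.49. In KO relative to WT with fibrils 2 rose and 5 fell, where 8.94% of all genes were called. Of those that fell, Pgd differed by -0.66 ± 0.18, Idh1, a cytosolic isocitrate dehydrogenase, by -0.90 ± 0.18 and Tkt, a transketolase, by -0.51 ± 0.14. Nnt, the transhydrogenase that makes NADPH in mitochondria, was higher in KO than in WT in every treatment. The difference was 0.80 ± 0.10 with fibrils, 1.08 ± 0.10 with LPS and 0.95 ± 0.09 in controls. Nnt fell with fibrils in KO by 0.45 ± 0.09. For Nnt and for Slc1a5 above, loss of Lrrk2 cannot be told apart from other genetic differences between the KO and WT mice.

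Of 22 regulators and targets of Nrf2 and Atf4, 11 rose with LPS in KO and 9 in WT, and none fell, where 13.7% (KO) and 15.1% (WT) of all genes were called. With fibrils 5 rose and none fell in KO, near the 23.7% of all genes, and 11 rose and 1 fell in WT, where 29.4% of all genes were called. The median log2 fold change of the 22 was 0.41 for LPS in KO, 0.30 for LPS in WT, 0.19 for fibrils in KO and 0.39 for fibrils in WT, while the medians over all genes lay between -0.05 and -0.02. Maff, a small Maf partner of Nrf2, averaged 17.4 ± 3.90 CPM in KO fibril and 157 ± 16.9 CPM in KO LPS libraries, against 5.45 ± 2.01 CPM in KO controls. It averaged 19.7 ± 2.00 CPM in WT fibril and 153 ± 39.5 CPM in WT LPS libraries, against 6.14 ± 2.98 CPM in WT controls. Maff was thus lower with fibrils than with LPS, by -3.17 ± 0.29 in KO and -2.96 ± 0.30 in WT. Txnrd1, the thioredoxin reductase, rose in all 4 treatment comparisons, by 0.78 ± 0.13 with fibrils in KO, 0.93 ± 0.15 with fibrils in WT, 1.14 ± 0.14 with LPS in KO and 0.90 ± 0.14 with LPS in WT. Prdx1, a peroxiredoxin, rose with fibrils in WT to 7272 ± 288 CPM, against 2896 ± 844 CPM in WT controls. In KO relative to WT with fibrils none of the 22 rose and 2 fell, near the 8.94% of all genes called. Prdx1, at 3645 ± 1049 CPM in KO with fibrils, differed by -0.996 ± 0.228 (adjusted p = 0.0107), and Atf3 by -0.79 ± 0.22 (adjusted p = 0.0263). These lists were chosen with earlier results of the same libraries known, and no test of a list was made. Their named genes were not followed through the alternative settings. For KO against WT with fibrils, the 1282 calls over all genes became 74 with the other-cell marker score as covariate.

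For each member called at least once, the tested genes whose log2 CPM followed it most closely over the 30 libraries were taken by Pearson's r, as a description of libraries that share groups, depth and cell makeup. Gsr was followed by Fam241a (r = 0.952), Riok3 (0.931) and Abcc1 (0.923). Gclm was followed by Slc48a1 (0.946), Gbe1 (0.933) and Esd (0.926), and Gclc by Cd36 (0.936), Card19 (0.903) and Vim (0.901). Slc7a11 was followed by Clec4e (0.934), Sqstm1 (0.903) and Cxcl3 (0.892), and Gss by Higd1a (0.897), Zdhhc12 (0.892) and Psma7 (0.868). Gpx1 was followed by Rdm1 (0.953), Mgst3 (0.918) and Mdh1 (0.911), Mgst1 by Ftl1 (0.908), 2010111I01Rik (0.908) and Lipa (0.905), and Gsto1 by Cd86 (0.854), Gpt (0.786) and Sash3 (0.766). No member was among these nearest genes of another member.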

How the data were processed

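The members and the wider lists were chosen with earlier results of these data known. Per the labels, libraries from primary microglia were made with a stranded kit after rRNA depletion and read from a single end. The authors deposited raw counts per Ensembl transcript, as whole numbers with no normalization. The submitters' processing notes name CASAVA 1.7.1, STAR 2.4.2a and mm10, with no role for each. The counting program and its use of strand were not given in the sources. Counts were summed to genes with GENCODE M21. Of 94647 transcripts 91320 matched, and the 3327 others held 0.779% to 0.891% of a library's counts and were left out, which gave 38031 genes.

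Genes were filtered with edgeR's filterByExpr over the 6 groups, scaled with TMM factors (0.827 to 1.14) and fitted with 1 mean per group over all 30 libraries (edgeR 4.0.16, R 4.3.3, common BCV 0.294, with 24 degrees of freedom left). The quasi-likelihood test was used for each contrast. The fit was tested on simulated counts with known changes. TPM used annotated transcript lengths. Alternatives were RLE and library-size scaling, other filters on low counts, limma-voom (limma 3.58.1), DESeq2 1.42.0, a replicate block, only the compared groups, and each library left out. Alternatives chosen after seeing the data were the omission of 7 libraries that stand apart, a score of astrocyte, oligodendrocyte and fibroblast markers as a covariate, and the sum of close libraries (the 4 WT fibril libraries as 1 sample, and KO LPS replicates 1 and 2 as 1). All 10 members are described. From each wider list, genes were named only from the called genes with the smallest p, at most 4 per comparison. Not all of these genes are named in the text. The replicate numbers are those in the titles, and 1 label gives other numbers for 2 WT controls.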

Additional observations from a re-analysis of the deposited data

Results flagged for a closer look

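In 60 sets of libraries (10 genes in 6 groups), 4 held a library far from the others by Dixon's test, where chance flags about 1 in 20. Gss was highest in KO control replicate 5 at 15.0 CPM, against 11.2 to 12.4 CPM in the other KO controls. Gclc was highest in KO control replicate 4 at 81.0 CPM, against 43.6 to 56.5 CPM in the others, and in WT control replicate 6 at 87.0 CPM, against 52.1 to 56.7 CPM in the others. Gpx1 was lowest in WT control replicate 3 at 162 CPM, against 201 to 209 CPM in the others. KO control replicate 4 and WT control replicate 6 are among the 7 libraries that stand apart.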

How the results depend on the processing

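No member's called difference changed sign under any alternative. Of 4 members called for LPS in KO, 2 were called with library-size scaling, with the marker covariate and with close libraries summed, and 2 to 5 without 1 library. For LPS in WT the 1 call became 3 with library-size scaling and 2 without the 7 libraries that stand apart. For fibrils in KO the 5 calls became 2 in a model of only the compared groups. For fibrils in WT the 6 calls became 2 with close libraries summed, and 3 to 6 without 1 library. For fibrils against LPS in KO the 3 calls became 1 with library-size scaling, no filter, only the compared groups or close libraries summed, 5 without the 7 libraries, and 1 to 5 without 1 library, and in WT the 4 calls became 7 with only the compared groups and 2 with close libraries summed, where 6523 of 12725 and 815 of 15717 genes were called in all, against 5316 of 14346. For KO against WT with LPS, 0 became 1 with library-size scaling and DESeq2, and 0 to 1 without 1 library. For KO against WT with fibrils, 3 became 1 with RLE scaling, library-size scaling and no filter, 0 with the marker covariate and with close libraries summed, and 1 to 6 without 1 library. The cause of these changes was not tested, except that summing leaves fewer samples and an open filter adds genes to the adjustment. With the summed WT fibril sample, its spread is assumed to be that of the other groups.

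Whether the replicate numbers pair the samples is not known. Of 64 same-numbered pairs of libraries, 25 had deviations correlated over 0.1. Pairs with different numbers were not examined, so this check cannot decide it. With a replicate block the members called were 4 for LPS in KO, 1 for LPS in WT, 5 and 7 for fibrils in KO and WT, 4 and 5 for fibrils against LPS, 0 and 0 for KO against WT in controls and with LPS, 4 with fibrils, and 0 for both differences of responses.

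Over all genes, library-size scaling moved the median log2 fold change to as low as -0.25 and called 3827 genes for LPS in WT, against 2171. For KO against WT with fibrils 1282 genes became 575 with limma-voom, 2580 without the 7 libraries, 74 with the marker covariate and 5 with close libraries summed. Summing gave 353 genes for fibrils against control in WT, against 4216.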
